A study of Mus musculus with 16 samples.

Results

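The genes described here encode the sarcomere: the giant filament proteins, the Z-disc and M-band, the light chains and the striated-muscle actins, with the proteins that cap, assemble, anchor and degrade them. Members were the rows of the expression table whose gene name is on a list of 47 symbols, and all 47 were found among 35275 genes. Of the 47, 30 passed the filter of a mean of at least 0.5 FPKM (fragments scaled by gene length and library depth) over the 16 libraries, as did 11832 genes of the whole table. The cells were C2C12, an established mouse myoblast line, of a stock that the labels call PAX7 NEG. Control cells were populations 1 and 2 (wild-type). Triple knockout (tKO) cells, which lack miR-1a-1, miR-206 and also miR-1a-2, were clones 1 and 2, so each knockout line derives from 1 clone. Each line was sampled in growth medium with 20% fetal bovine serum near confluency (GM) and after 3 days in 2% horse serum (DM3), in cultures numbered 1 and 2. Genotype and medium together made 4 groups of 4 libraries. The labels do not say how the numbered cultures were separated, so p-values measure the spread between these libraries, and the 2 cultures of a line share that line.

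A sarcomere is the contractile unit of striated muscle, bounded by Z-discs that crosslink actin filaments through alpha-actinin and centred on an M-band that holds myosin filaments together. Titin spans from Z-disc to M-band, nebulin lies along the thin filament, and chaperones and Kelch proteins help to build and keep the lattice. Cultured myoblasts make little of this machinery while they divide and switch it on as they leave the cell cycle and fuse into myotubes. miR-206 and miR-1 are muscle microRNAs with the same seed, the bases that pair with target messages, and they also rise when myoblasts differentiate.

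The mature miR-206 is shown because its seed, bases 2 to 8, is what the deleted microRNAs share. It is given 5′ to 3′ with the seed in capitals, from RefSeq on GRCm38.p6 (chr1:20679055-20679076, plus strand); miR-1a is named only.
mmu-miR-206-3p: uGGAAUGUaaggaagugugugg
The matching DNA words are ACATTCC, ACATTCCA and CATTCCA. In the longest annotated 3′ UTR of each of the 47 genes (GENCODE M21), these words occurred in 0 genes, and no other annotated transcript of the 47 held one. Among the 10844 tested genes with such a UTR, 2178 (20.1%) held at least 1 of the words. The sarcomere genes' UTRs were short, with a median of 490 bases against 1360 bases in the tested genes, and came to 37.1 kb in all. The same search found 2 sites in Twf1 and 2 in Hdac4, both long-known targets of the family. An absent word says only that these letters are not in these windows.

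Promoters of 3 members are shown because all 3 genes rose on differentiation and were called lower in the tKO cells of culture 2, as described below: Acta1 (skeletal alpha-actin), Klhl41 (a Kelch protein of the sarcomere) and Mylpf (the fast regulatory light chain). Each runs 5′ to 3′ from 250 bases before to 50 after the RefSeq start on GRCm38.p6, at chr8:123894726-123895025 (minus strand), chr2:69669870-69670169 (plus strand) and chr7:127211358-127211657 (plus strand). Capitals mark the E-boxes CAGCTG and CACCTG, which MyoD-family factors can bind, the MEF2 site and the CArG box of serum response factor, searched on both strands.
Acta1: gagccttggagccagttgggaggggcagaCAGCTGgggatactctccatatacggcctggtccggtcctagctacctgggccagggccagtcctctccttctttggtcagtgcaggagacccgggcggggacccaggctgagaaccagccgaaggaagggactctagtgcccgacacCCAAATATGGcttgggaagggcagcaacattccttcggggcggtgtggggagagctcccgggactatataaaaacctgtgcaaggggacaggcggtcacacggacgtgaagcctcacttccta
Klhl41: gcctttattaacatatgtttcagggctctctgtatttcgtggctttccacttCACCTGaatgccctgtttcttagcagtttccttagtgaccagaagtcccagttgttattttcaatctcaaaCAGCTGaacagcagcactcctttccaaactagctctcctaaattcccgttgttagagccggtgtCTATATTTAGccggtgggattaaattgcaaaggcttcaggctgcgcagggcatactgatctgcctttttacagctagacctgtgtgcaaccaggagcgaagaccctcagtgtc
Mylpf: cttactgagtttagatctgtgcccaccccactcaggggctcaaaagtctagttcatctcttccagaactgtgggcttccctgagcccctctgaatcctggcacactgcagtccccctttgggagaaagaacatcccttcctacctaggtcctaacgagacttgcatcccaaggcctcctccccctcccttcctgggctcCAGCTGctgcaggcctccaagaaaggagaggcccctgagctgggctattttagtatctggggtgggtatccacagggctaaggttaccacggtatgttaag
A promoter was matched for 37 of the 47 genes. The MEF2 site was present in 6 of these 37 (16.2%) against 0.557% of all 32851 promoters of this length, and the CArG box in 5 (13.5%) against 1.63%. The E-box CAGCTG was found in 16 (43.2%) against 16.3%, and CACCTG in 10 (27.0%) against 20.2%. These matches describe letters in the windows and were not tested.

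Depth recovered from the value steps was 22642563 to 56585952 fragments per library, and all values came out whole within 0.05 of a fragment. At that depth 3 fragments, the limit that a count of 0 allows, equal 0.0530 to 0.133 FPKM for a gene of 1 kb; limits of this kind cover counting error only. No 2 libraries of a group agreed within sampling noise (chi-square per degree of freedom 20.6 to 255.9 over 24 pairs). The deleted microRNA genes were not analysed here, so the genotypes rest on the labels. Per-library values below are FPKM in the order line 1 culture 1, line 1 culture 2, line 2 culture 1 and line 2 culture 2, a line being a control population or a tKO clone. Differences and changes are in units of log2(FPKM + 1), so those of genes under a few FPKM come out too small, and adjusted p-values are from limma with Benjamini-Hochberg adjustment over the 11832 genes. A change is called at an adjusted p under 0.05.

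The 47 genes took 0.117 to 0.143% of fragments in control GM and 0.470 to 0.566% in control DM3. In tKO cells the share was 0.120 to 0.319% in GM, and in DM3 it was 0.481 and 0.490% in culture 1 but 0.369 and 0.351% in culture 2. The culture 2 tKO libraries at DM3 thus lay below all 4 controls, while the culture 1 libraries lay within the control range. In bulk RNA, fewer myotubes and less RNA per myotube cannot be told apart. Ranked by FPKM, which is per length, Ankrd1, Flnc, Des and Pdlim5 led in control GM, and Acta1, Des, Mylpf, Myl1 and Actn3 led in control DM3. The summed FPKM of 6 myotube markers (Myog, Ckm, Tmem8c, Myh3, Tnnt3 and Chrna1) was 356, 396, 327 and 346 in control DM3 and 380.1, 186, 399 and 240.0 in tKO DM3. Low sums fell in the same 2 libraries as the low sarcomere share. Tnnt3, itself a sarcomere gene, was the largest part of the sum in each DM3 library. The markers did not all move together, as described with the culture comparison.

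The labelled cell type was checked on marker genes. Of the myoblast markers, Myf5 was present in every library (8.94 FPKM or more) and Pax7 was at most 0.0238. Cdh15 was at 8.15 to 11.4 in control GM and 19.6 to 40.3 in tKO GM, without overlap. Myod1 was at 0 in all 4 control GM libraries, at most 0.0546 in tKO GM, and after differentiation at 0.746 to 2.75 (control) and 1.61 to 3.41 (tKO), so this defining myoblast gene was not detectable at this depth in the proliferating controls. The sum of 5 cell-cycle markers was 221 to 379.5 FPKM over the GM libraries, 83.5 to 104 in control DM3 and 33.4, 56.8, 117 and 82.1 in tKO DM3. Fibroblast marker sums, nearly all Col1a1, ran over 371 to 686 (control) and 241 to 554 (tKO) before differentiation and over 1066 to 1296 (control) and 699 to 1825 (tKO) after it, while the fibroblast gene Tcf21 was at most 0.0658 in any library. Cardiomyocyte sums were 8.82 to 23 over all libraries, mostly Nkx2-5 at 8.34 to 22.9. Adipocyte sums were 2.9 to 15.2, leukocyte sums at most 4.04 and endothelial sums at most 0.435. The part of these markers in the sarcomere values was not tested.

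**Figure D1:**
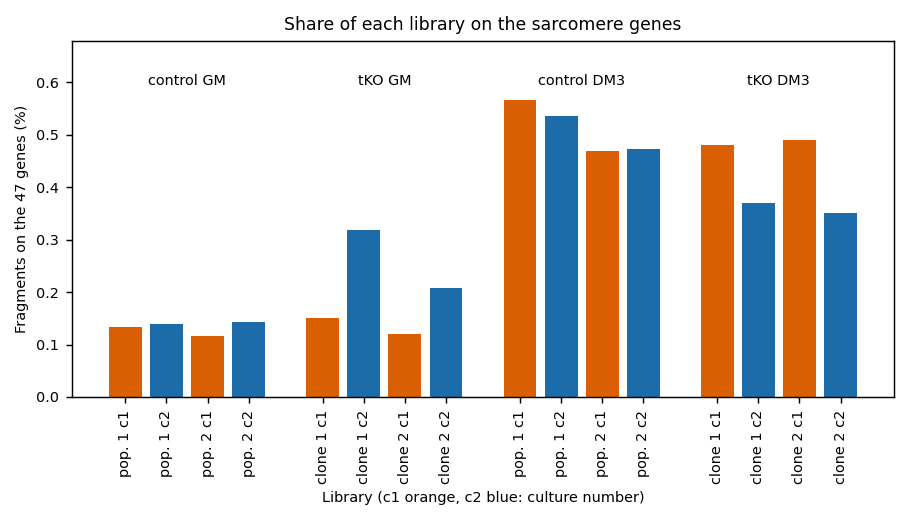
Percent of each library's fragments (y axis) assigned to the 47 sarcomere genes, 1 bar per library on the x axis, orange for culture 1 and blue for culture 2. Control DM3 bars reach 0.470 to 0.566%, and the culture 2 tKO DM3 bars stop at 0.369 and 0.351%.

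**Figure D2:**
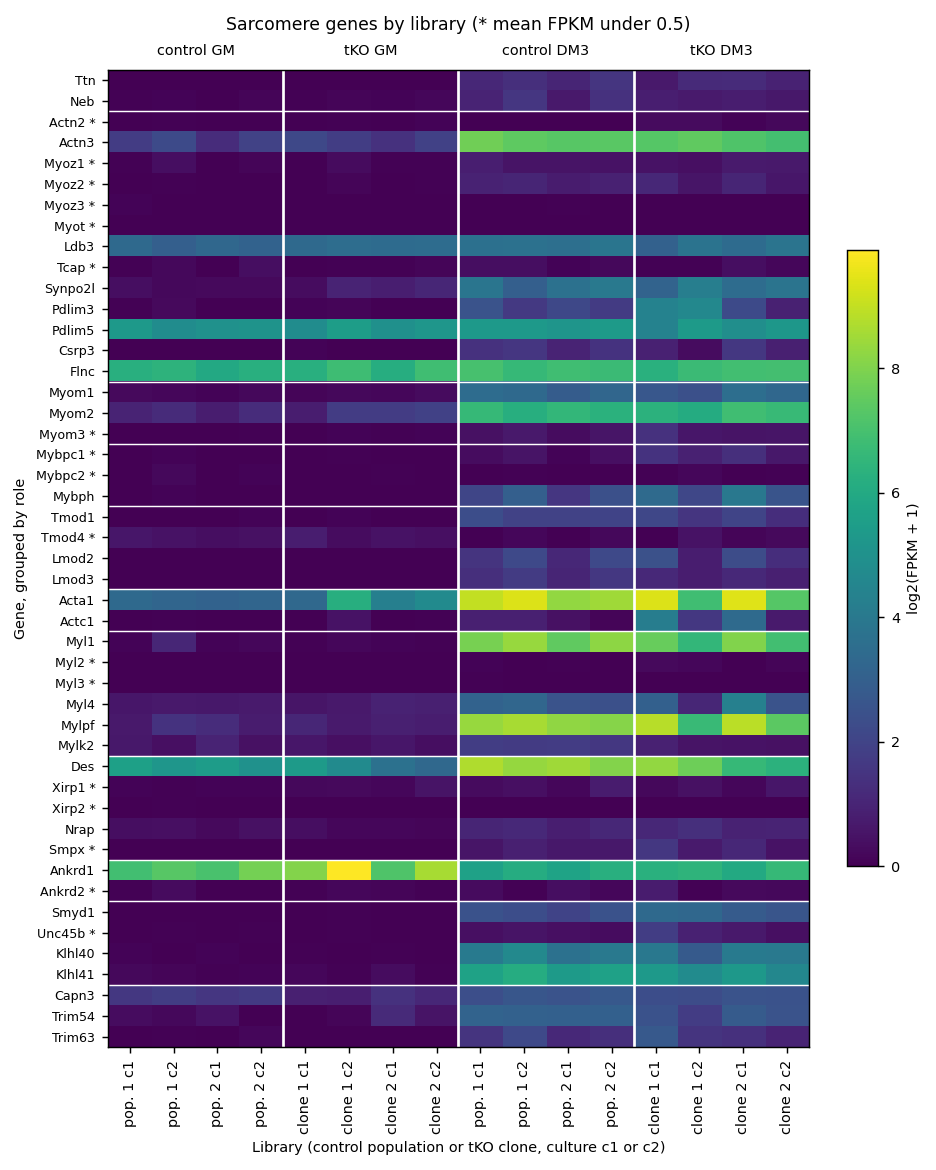
Level of each of the 47 genes as log2(FPKM + 1) (colour) by library (columns, in 4 groups) and role (rows); an asterisk marks the 17 genes whose mean over 16 libraries was under 0.5 FPKM. Rows such as Myl1, Mylpf, Actn3 and Myom2 are dark in GM and light in DM3. Many others, the asterisked ones among them, stay dark in both, and Ankrd1 is lightest in tKO GM.

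Differentiation raised most of the sarcomere genes in both genotypes. In control cells 27 of the 30 tested members rose, 1 fell (Ankrd1) and 2 were not called (Pdlim5 and Actc1), with a median log2 change of 1.97 against -0.15 over all tested genes. Of all tested genes, 23.2% were called higher and 38.3% lower. In tKO cells 25 members rose, 1 fell (Ankrd1) and 4 were not called (Ldb3, Pdlim5, Flnc and Mylk2), with a median of 1.96 against -0.12, where 24.9% of all tested genes were called higher and 36% lower. Both GM group means were under 0.5 FPKM for 17 of the 30, which passed the filter only through their DM3 values, so these counts describe the genes and support nothing further. With median-of-ratios scaling the all-gene median moved to 0.01 in both genotypes, and the split over all genes changed. It went from 2743 higher and 4529 lower to 3611 and 3632 in control cells, and from 2951 and 4257 to 3573 and 3587 in tKO cells. The member counts were then 29 called of 30 in control cells, Pdlim5 being the gene added, and 26 in tKO cells.

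Both giant filament genes rose. Titin (Ttn), the molecular spring of the sarcomere, stood at 0.00268, 0.0124, 0.00194 and 0.00374 in control GM and 1.16, 1.55, 1.01 and 1.85 in control DM3. In tKO cells it stood at 0.00284, 0.0062, 0.00716 and 0.00121 in GM and 0.598, 1.27, 1.31 and 0.931 in DM3. No DM3 library overlapped GM, and the log2 change was 1.24 (SE 0.13) in control and 1.00 (SE 0.13) in tKO cells (limma, adjusted p = 9.98e-07 and 9.04e-06). Nebulin (Neb), a ruler of thin filament length, rose by 1.07 and 0.63. It was at 0.0407, 0.0734, 0.0237 and 0.0874 in control GM and 0.030, 0.0884, 0.0609 and 0.114 in tKO GM. Its DM3 values were 0.769, 0.627, 0.714 and 0.548 in tKO cells and 0.955, 1.92, 0.619 and 1.63 in control cells, the latter higher in culture 2 than culture 1 of both populations.

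Among 7 tested Z-disc genes, 6 rose in control and 4 in tKO cells. Actn3, the fast-fibre alpha-actinin that crosslinks thin filaments, was at 2.39, 3.72, 1.4 and 2.88 in control GM and 3.37, 2.45, 1.67 and 2.79 in tKO GM. At DM3 it reached 215, 173, 158 and 163 in control and 156, 178, 143 and 120.2 in tKO cells. The log2 change was 5.66 (SE 0.19) and 5.40 (SE 0.19), and DM3 levels overlapped between genotypes. Actn2, the other muscle alpha-actinin, was at most 0.228 FPKM in any library. At DM3 it was at 0 to 0.0261 in control and 0.0719 to 0.228 in tKO cells, and it was not tested. Csrp3 (muscle LIM protein) was at 0 in all 4 control GM libraries and at 1.62, 1.92, 0.991 and 1.7 in control DM3. In tKO cells it was 0.0734, 0, 0 and 0 in GM and 0.881, 0.265, 2.0 and 0.839 in DM3, with clone 1 culture 2 the lowest. Pdlim5, a PDZ-LIM adaptor already high in myoblasts, showed no called change: its values were 39.9, 26.8, 30.8 and 32.6 in control GM and 38.6, 38.6, 34.5 and 41.3 in control DM3. Its tKO values were 27.1, 44.4, 30.6 and 35.9 and 20, 40.5, 29 and 37, overlapping throughout. The actin crosslinker Flnc and the adaptor Ldb3 were likewise present in GM, at 61.8 to 83.9 and 6.88 to 9.31 FPKM in control cells, and changed by 0.58 and 0.52 there. Synpo2l, an actin-binding Z-disc protein, rose by 3.37 and 2.87.

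The M-band genes rose in both genotypes. Myom2, a myosin crosslinker of fast fibres, was at 0.97, 1.35, 0.713 and 1.37 in control GM and 97.6, 72, 91.8 and 79.5 in control DM3. Its tKO values were 0.711, 2.38, 2.42 and 2.76 in GM and 81.6, 66.1, 115 and 100.4 in DM3. The stages did not overlap, the genotypes did at DM3, and the log2 change was 5.36 (SE 0.22) and 4.93 (SE 0.22). Myom1, its relative found in all striated muscle, rose by 3.06 and 2.77; its DM3 values were 10.2, 9.37, 6.31 and 8.73 in control and 5.36, 4.28, 10.8 and 8.82 in tKO cells, where clone 1 was below clone 2. Its GM values ran from 0.0794 to 0.189 in control and 0.0903 to 0.232 in tKO cells. Myosin-binding protein H (Mybph) was the tested member of its family. It was at 0, 0.0694, 0 and 0 in control GM and 0, 0, 0.0137 and 0 in tKO GM, and rose by 2.23 and 3.01; its DM3 values follow with the culture comparison.

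Thin filaments are capped by tropomodulins and lengthened by leiomodins, and the 3 tested genes of this kind rose in both genotypes. Tmod1, a pointed-end cap, stood at 0.00906, 0.0255, 0.0188 and 0.0681 in control GM and 0.0214, 0.0699, 0 and 0.0103 in tKO GM. Its DM3 values were 4.0, 2.84, 2.9 and 2.99 in control and 3.29, 1.87, 3.07 and 1.49 in tKO cells, with both tKO culture 2 libraries below every other DM3 library. Its log2 change was 2.01 in control and 1.71 in tKO cells. Lmod3, a filament nucleator, rose by 1.41 and 0.98. It reached 1.55, 2.28, 1.01 and 2.03 in control and 1.22, 0.713, 1.22 and 0.831 in tKO DM3, from at most 0.015 FPKM in GM.

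The striated-muscle actins differed from each other. Acta1, the main actin of adult skeletal thin filaments (chr8:123891767-123894736, minus strand, mm10), was at 9.48, 8.4, 7.68 and 8.36 in control GM and 9.02, 72.1, 18.1 and 25.9 in tKO GM. At DM3 it reached 506, 653, 315 and 355 in control and 664, 115, 682 and 157 in tKO cells. It was the highest member at DM3, and its log2 change was 5.54 (SE 0.57) in control and 3.61 (SE 0.57) in tKO cells (limma, adjusted p = 6.91e-07 and 5.09e-05). Actc1, the cardiac actin also made by embryonic muscle, was at most 0.84 FPKM in any control library. In control cells its change of 0.56 was not called (limma, adjusted p = 0.357), while in tKO cells it rose by 2.34 (SE 0.51). The control stages still did not overlap. Mean Actc1 went from 0.0273 to 0.838 FPKM in population 1 and from 0.0104 to 0.231 in population 2. Changes at such low levels come out too small on this scale. The difference between these changes, 1.78 (SE 0.72), was not called (limma, adjusted p = 0.372). The coding sequences of the actins are closely alike, so fragments could be split between them by the counting, which is not given in the sources used here.

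On the log2(FPKM + 1) scale the 2 fast light chains, Myl1 and Mylpf, had the largest changes of the 30 tested members in both genotypes. The place of Mylpf depended on the setting. Over the alternatives its change reached at most 8.33 in control and 8.20 in tKO cells, while that of Klhl40 reached 9.32 and 8.80. Myl1, the essential light chain of fast myosin, stood at 0.0793, 1.12, 0.0822 and 0.114 in control GM and 0.0312, 0.122, 0.0589 and 0.030 in tKO GM. At DM3 it stood at 229, 326, 177 and 294 in control and 193, 93.6, 257 and 117 in tKO cells. Its log2 change was 7.60 (SE 0.28) and 7.18 (SE 0.28). Mylpf moved alike, from 0.598, 1.73, 1.39 and 0.682 to 327, 383, 302 and 275 in control and from 1.1, 0.634, 0.832 and 0.72 to 451, 104, 466 and 167 in tKO cells. Its log2 changes were 7.29 and 7.09. Myl4, the embryonic essential light chain, rose by 2.17 and 1.97 to 4.39 to 8.7 FPKM in control and 1.1 to 18.7 in tKO DM3. The ventricular chains Myl2 and Myl3 were at 0 in all GM libraries and at most 0.175 and 0.0278 at DM3.

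Desmin (Des), the intermediate filament that ties Z-discs together, was already at 47.8, 36.1, 43.1 and 31.2 in control GM and reached 415, 319.8, 360.2 and 262 at DM3. In tKO cells it went from 41.4, 25.6, 12 and 9.22 to 312, 210.2, 98.3 and 80.2. The log2 change was 3.07 (SE 0.42) and 2.95 (SE 0.42), and the difference between these changes was not called (limma, adjusted p = 0.964). Clone 2 was low at both stages. The tKO minus control difference was -1.02 in GM and -1.14 at DM3, and neither was called. Within each DM3 culture both clones lay below both populations. That held for 22.6% of all tested genes in culture 1 and 24.0% in culture 2. Nrap, which anchors actin ends during myofibril assembly, rose by 0.67 and 0.87. Its values were 0.276, 0.315, 0.183 and 0.352 in control GM and 1.06, 1.18, 0.794 and 1.15 in control DM3. In tKO cells they were 0.282, 0.12, 0.128 and 0.112 and 1.13, 1.52, 0.905 and 0.981, so the stages did not overlap in either genotype.

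Ankrd1, a stretch-responsive ankyrin repeat protein of the titin I-band, was the member that fell. It stood at 118, 160.4, 133 and 228 in control GM and 49.9, 69.4, 52.3 and 74.9 in control DM3. In tKO cells it stood at 263, 949.6, 144 and 388 in GM, where clone 1 culture 2 was far above the rest, and 76.3, 85.9, 63 and 99 in DM3. The log2 change was -1.33 (SE 0.39) in control and -2.09 (SE 0.39) in tKO cells (limma, adjusted p = 0.00784 and 0.000246).

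The assembly genes rose in both genotypes. Klhl41, which helps to stabilise nebulin and the thin filament, stood at 0.17, 0.0955, 0.0352 and 0.0607 in control GM and 0.12, 0.0524, 0.265 and 0.0385 in tKO GM and changed by 5.60 and 4.83. Klhl40, its relative, changed by 4.04 and 3.65 to 12 to 24.1 FPKM in control and 5.93 to 15.5 in tKO DM3. Smyd1, a methyltransferase that works with the myosin chaperone, stood at no more than 0.0394 FPKM in GM and changed by 2.32 and 3.02.

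The turnover genes rose as well. On the log2(FPKM + 1) scale Trim54, a microtubule- and titin-binding MuRF ubiquitin ligase, had the largest control change of the 3, 2.82 (SE 0.24). It went from 0.239, 0.168, 0.393 and 0.0214 in GM to 7.94, 7.49, 7.27 and 7.1 in DM3. In tKO cells it changed by 1.95, from 0, 0.0924, 1.27 and 0.453 to 4.69, 2.42, 6.21 and 4.77, and all 4 tKO DM3 values were below the control values. Trim63 (MuRF1) changed by 1.49 and 1.63 to 1.22 to 3.59 FPKM in control and 0.954 to 5.8 in tKO DM3. The protease Capn3 had the smallest control change, 0.91 (SE 0.13), and is described with the GM comparison.

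**Figure D3:**
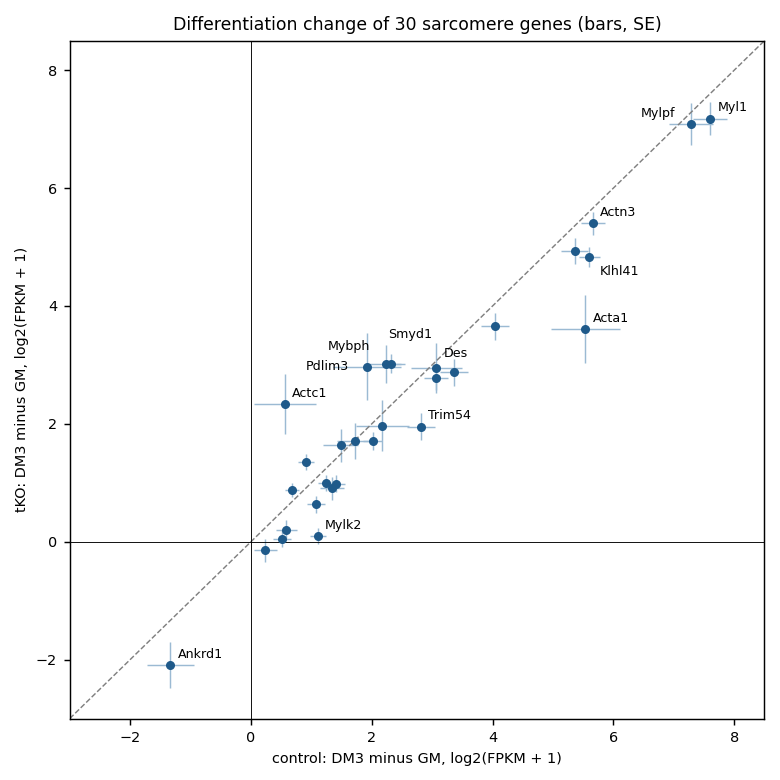
Change from GM to DM3 in control cells (x axis) against tKO cells (y axis), both on the log2(FPKM + 1) scale, for the 30 tested genes; bars are SE and the dashed line marks equal change. Most genes sit near the line, Mylk2 lies at 1.11 and 0.10, and Ankrd1 is the gene below 0 on both axes.

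The other 17 members had means under 0.5 FPKM and were not tested. They were Actn2, Myoz1, Myoz2, Myoz3, Myot, Tcap, Myom3, Mybpc1, Mybpc2, Tmod4, Myl2, Myl3, Xirp1, Xirp2, Smpx, Ankrd2 and Unc45b, and their highest value in any library was 2.45 FPKM (Unc45b, the myosin chaperone, in tKO DM3 clone 1 culture 1). Calsarcins Myoz1 and Myoz2 stood at 0.41 to 0.769 and 0.704 to 1.03 in control DM3, whereas Myoz3 and the Z-disc protein Myot were at or near 0 throughout, at most 0.0658 and 0.0268. The titin cap gene Tcap stayed at or below 0.304 and Xirp2 at or below 0.0403. Xirp1 was at 0.129 to 0.682 in control DM3 and Ankrd2 at 0.0482 to 0.286. Smpx, a small stretch-associated protein, was at 0 in all 8 GM libraries and at 0.477, 0.813, 0.573 and 0.538 in control and 2.06, 0.634, 1.13 and 0.39 in tKO DM3. Tmod4, the skeletal tropomodulin, was higher in GM in control cells, at 0.499, 0.415, 0.306 and 0.366 in control GM and 0, 0.126, 0 and 0.164 in control DM3. In tKO cells its stages overlapped, at 0.75, 0.245, 0.379 and 0.335 in GM and 0.0247, 0.414, 0.0859 and 0.178 in DM3. Slow myosin-binding protein C (Mybpc1) was at 0.254, 0.428, 0.0641 and 0.316 in control and 1.71, 0.86, 1.51 and 0.541 in tKO DM3, every tKO value above every control value, while the fast form Mybpc2 stayed at or below 0.155. Myom3 reached 0.259 to 0.606 in control and 0.427 to 1.64 in tKO DM3.

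In growth medium Capn3 was the member of the list called between genotypes. Of the 30 tested members 1 was lower in tKO cells and 0 higher (limma; 6 had an unadjusted p under 0.05), against 2.06% of all tested genes in either direction, and the median difference was 0.01 against -0.01. Capn3 is the calpain that binds titin (chr2:120456019-120504913, plus strand, mm10). It stood at 2.02, 2.43, 1.98 and 2.23 in control GM and 0.819, 0.793, 1.63 and 1.15 in tKO GM, and the groups did not overlap. The difference was -0.61 (SE 0.13; limma, adjusted p = 0.026). At DM3 the values were 4.15, 5.22, 4.84 and 5.66 in control and 3.99, 3.9, 4.78 and 4.59 in tKO cells, they overlapped, and no difference was called. The Capn3 call was lost on leaving out any 1 control GM library or either clone 1 GM library (adjusted p up to 0.102), with the difference between -0.72 and -0.54, and in a fit of the 8 compared libraries (limma, adjusted p = 0.0579).

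Within GM cultures, culture 1 gave 0 calls among the 30 (limma; 1 with an unadjusted p under 0.05; 0.6% of all tested genes called) and culture 2 gave 3 (3.06%). Each of these compares 2 lines with 2 lines on a spread pooled over all libraries, and no permutation test of 2 against 2 can pass 0.05. In culture 2, Acta1 was higher in tKO cells by 2.24 (SE 0.44), Ankrd1 by 1.66 (SE 0.36), and Capn3 lower, -0.76 (SE 0.18; limma, adjusted p = 0.022, 0.0293 and 0.0423). The high values were Acta1 72.1 and Ankrd1 949.6 in clone 1 culture 2. Without that library, or without either control GM culture 2 library, both calls were lost. The differences were 1.52 for Acta1 and 1.02 for Ankrd1 without clone 1. Without control population 1 they were 2.25 and 1.41, and without population 2 2.24 and 1.91. With no filter on low values all 3 culture 2 calls ended (limma, adjusted p = 0.0517, 0.0654 and 0.0717). The Capn3 culture 2 call ended in 11 of the 16 cases of 1 library left out. The same tKO GM culture 2 libraries had the highest summed FPKM of 4 smooth muscle markers (Myh11, Acta2, Cnn1 and Tagln), 6117 and 5728 against 1874 to 3165 in the other 6 GM libraries. Most of each sum was the smooth muscle actin Acta2, at 5436 and 5142. Tagln was also highest there, at 675.1 and 569.9, while Cnn1 overlapped the other GM libraries and Myh11 was at most 0.206. The part of these genes in the Acta1 and Ankrd1 values was not tested.

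After 3 days of differentiation 3 members were called between genotypes: Smyd1 higher and Mylk2 and Klhl41 lower in tKO cells. That is 3 of 30 against 3.38% of all tested genes in either direction, with a median of -0.25 for the members and 0.01 for all genes. Among the 30 tested members, libraries of the 2 genotypes did not overlap for 1 that was higher (Smyd1, 4.22% of all tested genes). They did not overlap for 3 that were lower (Mylk2, Klhl41 and Trim54, 4.3%). The remaining 26 overlapped. Without their control DM3 values 5 members (Ttn, Neb, Csrp3, Lmod3 and Mylk2) would have been under the filter, and without their tKO DM3 values 4 (Ttn, Neb, Actc1 and Nrap). For these genes the genotype tests at DM3 are on members that passed through a compared group.

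Mylk2, the skeletal muscle myosin light chain kinase that phosphorylates the regulatory light chain (chr2:152911352-152923068, plus strand, mm10), stood apart. It was at 0.562, 0.314, 0.955 and 0.375 in control GM and 0.503, 0.329, 0.497 and 0.286 in tKO GM. At DM3 it was at 2.47, 2.29, 2.4 and 2.08 in control cells and 0.855, 0.436, 0.391 and 0.37 in tKO cells. All 4 control DM3 libraries lay above every other library, and tKO DM3 overlapped tKO GM. The DM3 difference was -1.14 (SE 0.14; limma, adjusted p = 0.000119), and it was called without any 1 library and under all 31 alternatives, no filter on low values among them (limma, adjusted p = 0.000229). It was found in both cultures, -1.09 in culture 1 and -1.18 in culture 2 (limma, adjusted p = 0.0052 and 0.00254). The calls within cultures ended without control population 1 or 2, which leaves 1 control library in each. The differences were then -1.08 and -1.11 in culture 1 and -1.135 and -1.23 in culture 2. The rise on differentiation was 1.11 (SE 0.14) in control cells and 0.10 (SE 0.14) in tKO cells (limma, adjusted p = 4.42e-06 and 0.552).

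The difference between those 2 rises was -1.01 (SE 0.20; limma, adjusted p = 0.0468), the 1 member called for genotype by stage, against 0.254% of all tested genes; 9 members had an unadjusted p under 0.05. This call was near the threshold: leaving out 1 library ended it in 14 of 16 cases (adjusted p up to 0.117), the exceptions being control GM population 2 culture 1 and tKO DM3 clone 1 culture 1. The value itself ran from -1.86 to -0.88 over all alternatives.

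Klhl41 (chr2:69670120-69684230, plus strand, mm10), whose promoter with its MEF2 site and both kinds of E-box is printed above, was at 50.6, 68.7, 41 and 50.2 in control DM3 and 39.4, 26.1, 38 and 22.8 in tKO DM3. The ranges were separate, with the lowest control value just above the highest tKO value. The difference was -0.73 (SE 0.17; limma, adjusted p = 0.026). Smyd1 (chr6:71213940-71322233, minus strand, mm10) was at 4.64, 4.11, 2.99 and 4.62 in control and 9.55, 8.98, 6.22 and 5.09 in tKO DM3, with clone 1 highest. The difference was 0.71 (SE 0.16; limma, adjusted p = 0.0199). The Klhl41 call ended (adjusted p up to 0.102) without control population 1 in culture 1 or 2, or without culture 2 of either clone. The Smyd1 call ended (adjusted p up to 0.0715) without population 2 culture 1, population 1 culture 2 or clone 1 culture 2 at DM3. Both calls also ended with a pseudocount of 0.1 (limma, adjusted p = 0.218 for Klhl41 and 0.0972 for Smyd1), with line averages as the units (0.0648 and 0.146), in a fit of the 8 compared libraries (0.155 and 0.161) and without either control population. That came to 10 of 32 alternatives for Klhl41 (adjusted p up to 0.618) and 9 of 31 for Smyd1 (up to 0.313), left-out libraries included.

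**Figure D4:**
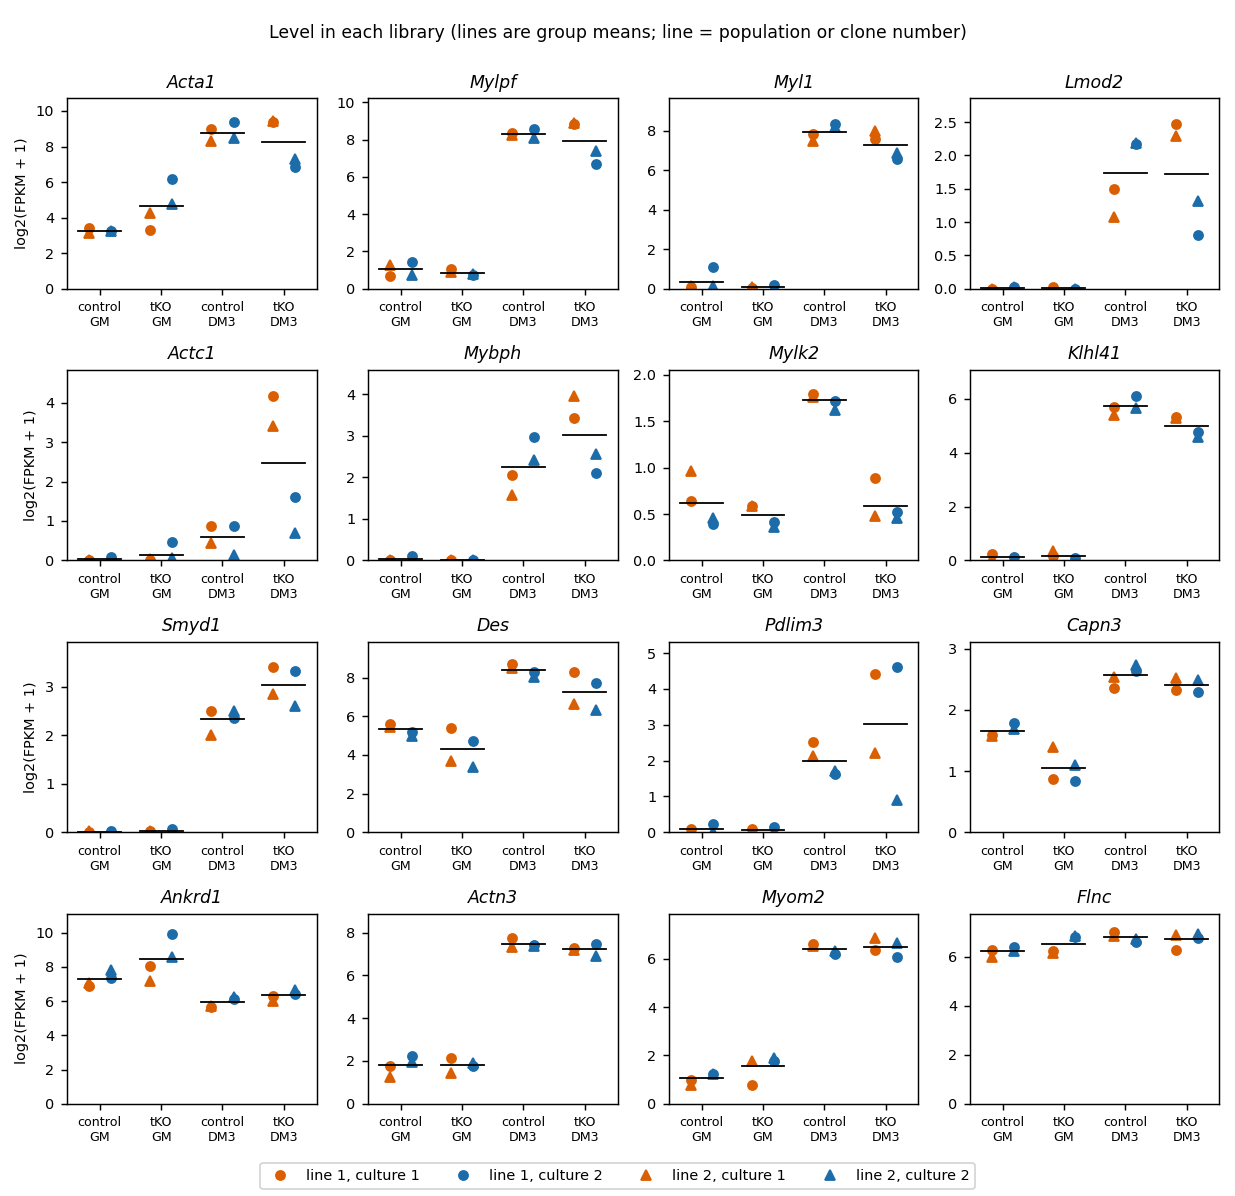
Level of 16 genes in each library as log2(FPKM + 1) (y axis) by group (x axis); circles are population or clone 1, triangles 2, orange culture 1 and blue culture 2, and black lines are means of 4 libraries. Mylk2 is high only in the control DM3 libraries among these groups, and the tKO DM3 points of Acta1, Mylpf, Myl1 and Lmod2 are split by culture, orange above blue.

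The tKO libraries at DM3 were then compared with the controls within each culture number. In culture 1, 3 members were called higher in tKO than control cells (Actc1, Mybph and Lmod2) and 1 lower (Mylk2), where 1.08% of all tested genes were called, and the median was 0.00 against -0.04. In culture 2, 9 members were called lower (Neb, Csrp3, Lmod2, Lmod3, Acta1, Myl1, Mylpf, Mylk2 and Klhl41) and 0 higher, where 5.16% of all tested genes were called, and the median was -0.52 against 0.07. Each comparison is again 2 lines against 2 lines on the pooled spread. In culture 2 the myotube marker sums of the tKO libraries, 186 and 240.0, were also below the control sums of 396 and 346. In culture 1 they were 380.1 and 399 against 356 and 327. The largest culture 2 gap was in Tnnt3, itself a sarcomere gene, at 69.2 and 107.5 in tKO against 259 and 223 in control cells. Ckm was also lower there, at 5.50 and 5.47 against 15.4 and 7.86. Myh3 was higher in both tKO libraries of culture 2 than in both controls, and Tmem8c, Myog and Chrna1 overlapped. The part of these markers in the sarcomere values was not tested.

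Acta1, Mylpf and Myl1, among the highest members at DM3, had lower tKO values in culture 2 than in culture 1. At DM3 Acta1 in the 2 tKO clones was 664 and 682 in culture 1, above all 4 controls, and 115 and 157 in culture 2, below all 4. The difference from control was 0.75 (SE 0.44) in culture 1 and -1.83 (SE 0.44) in culture 2 (limma, adjusted p = 0.506 and 0.0385). Mylpf differed by 0.54 and -1.29 (limma, adjusted p = 0.42 and 0.0236), and Myl1 by 0.15 and -1.56 (limma, adjusted p = 0.845 and 0.00789). Pooled over cultures, none of the 3 was called: the DM3 difference was -0.54 for Acta1 (95% interval -1.76 to 0.68), -0.38 for Mylpf (-1.14 to 0.39) and -0.71 for Myl1 (-1.31 to -0.10). The direct test of culture 1 against culture 2 was not called for any of the 3: the 2 differences lay 2.59 apart for Acta1, 1.84 for Mylpf and 1.70 for Myl1 (limma, adjusted p = 0.347, 0.285 and 0.285). The culture 2 call ended for all 3 genes without control population 1 or tKO clone 1 at DM3 culture 2; for Acta1 it ended in 9 of the 16 cases of 1 library left out (adjusted p up to 0.409), GM libraries included, and with no filter on low values (limma, adjusted p = 0.0701). With a pseudocount of 0.1 the Mylpf and Myl1 calls ended (limma, adjusted p = 0.0893 and 0.134).

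Lmod2, a leiomodin that lengthens thin filaments (chr6:24597771-24605414, plus strand, mm10), went opposite ways. It was at most 0.0205 FPKM in any GM library and at 1.81, 3.5, 1.12 and 3.56 in control DM3, higher in culture 2 of both populations. In tKO DM3 it was at 4.54, 0.742, 3.87 and 1.49, higher in culture 1 of both clones. The tKO difference was 1.09 (SE 0.18) in culture 1 and -1.12 (SE 0.18) in culture 2 (limma, adjusted p = 0.0131 and 0.00773). Tested directly, culture 1 minus culture 2 was 2.21 (SE 0.26; limma, adjusted p = 0.021). Lmod2 was the 1 gene of 11832 called in this interaction (0.00845%), while 15 members had an unadjusted p under 0.05 and the median was 0.45 against -0.11. The interaction call ended in 12 of the 16 cases of 1 library left out (adjusted p up to 0.2), and its value stayed between 1.96 and 2.47 there. Leaving out tKO DM3 clone 2 culture 1 instead raised the count of called members to 11.

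Actc1 and Mybph were highest in tKO culture 1. Actc1 was at 0.836, 0.84, 0.362 and 0.10 in control DM3 and 17.1, 2.08, 9.7 and 0.632 in tKO DM3, with both culture 1 clones well above every other library. The culture 1 difference was 3.14 (SE 0.33) and the culture 2 difference 0.66 (SE 0.33; limma, adjusted p = 0.000524 and 0.249). Mybph was at 3.19, 6.87, 1.98 and 4.35 in control and 9.72, 3.33, 14.7 and 4.94 in tKO DM3, and differed by 1.88 (SE 0.24) in culture 1 and -0.36 (SE 0.24) in culture 2 (limma, adjusted p = 0.0018 and 0.388). The tests of the difference between cultures were not called for either gene (limma, adjusted p = 0.216 and 0.0917). Actc1 passed the filter only through tKO DM3, the group where it is high; with no filter its culture 1 difference was called (limma, adjusted p = 0.00226). Both culture 1 calls held without any 1 library. They ended without control population 1 or 2, which leaves 1 control library in the culture. The differences were then 3.35 and 2.92 for Actc1 and 2.12 and 1.63 for Mybph. The Lmod2 culture 1 call ended without population 2 or clone 1 of DM3 culture 1 (adjusted p up to 0.169), and the Mylk2 culture 1 call without either control library of DM3 culture 1 (up to 0.0821).

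The remaining culture 2 calls were Klhl41, Csrp3, Lmod3 and Neb. Klhl41 differed by -1.23, Csrp3 by -0.88, Lmod3 by -0.83 and Neb by -0.80 (limma, adjusted p = 0.00229, 0.0485, 0.00944 and 0.00928). The last 3 were at low levels, where differences come out too small on this scale. Their differences were -1.71, -1.37 and -1.45 with a pseudocount of 0.1. Neb was at 0.627 and 0.548 in tKO culture 2 against 1.92 and 1.63 in control culture 2, and Lmod3 at 0.713 and 0.831 against 2.28 and 2.03. Not all structural genes were called lower: in culture 2 Actn3 differed by -0.20 (95% interval -0.76 to 0.36), Myom2 by 0.11 (-0.51 to 0.72) and Flnc by 0.16 (-0.23 to 0.54), none of them called. The Csrp3 call ended in 13 of 16 cases of 1 library left out, and the Neb, Lmod3 and Lmod2 culture 2 calls ended without control population 1 or tKO clone 1 of DM3 culture 2. The Klhl41 call held without any 1 library but ended without control population 1, where the difference was -1.01. With a pseudocount of 0.1 the culture 2 calls of Klhl41, Csrp3, Lmod3 and Neb all ended, and with no filter Csrp3 was not called while Lmod3 and Neb were (limma, adjusted p = 0.072, 0.00596 and 0.00427).

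**Figure D5:**
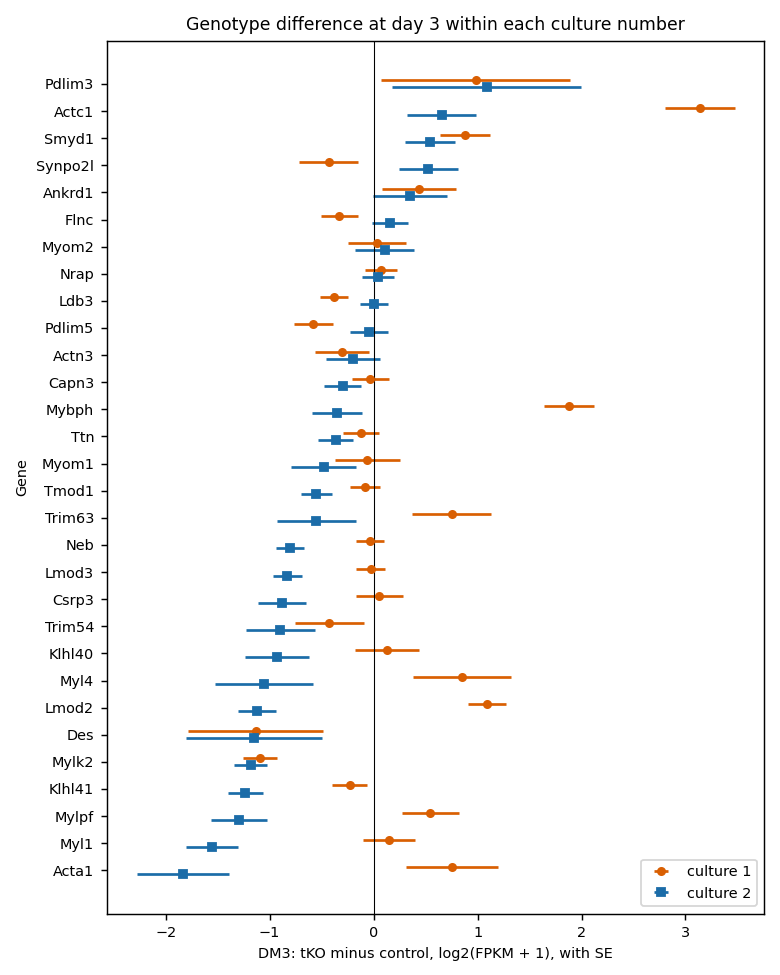
Difference between tKO and control cells at DM3 on the log2(FPKM + 1) scale (x axis) for the 30 tested genes (y axis), in culture 1 (orange circles) and culture 2 (blue squares), each from 2 lines against 2 lines; bars are SE. Acta1, Myl1 and Mylpf lie below 0 in culture 2 and above 0 in culture 1, Mylk2 lies near -1.1 in both, and Actc1 reaches 3.14 in culture 1.

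The 2 clones also differed from each other in some members, which was chosen after the values were seen and not tested. Desmin was lowest in clone 2 at both stages: 98.3 and 80.2 at DM3 against 312 and 210.2 in clone 1. Pdlim3, an alpha-actinin-associated LIM protein, was at 20.2 and 23.3 in clone 1 DM3, 3.64 and 0.875 in clone 2 DM3 and 4.75, 2.08, 3.38 and 2.28 in control DM3.

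Genes near the list in function were compared by count. Of 26 other sarcomere genes (myosin heavy chains, troponins, tropomyosins and others), 14 were tested, and in each genotype 10 rose and 2 fell (Tpm1 and Tpm3) on differentiation, with medians of 2.06 in control and 2.16 in tKO cells. Tnnt3, fast troponin T, changed by 7.21 and 6.50. Between genotypes at DM3, 1 of the 14 was higher (Tpm3) and 1 lower (Obsl1). In GM 1 of the 14 was called higher and 1 lower in tKO cells. Of 25 non-muscle and smooth-muscle relatives of the members, 24 were tested, and in each genotype 4 rose and 15 fell, with medians of -0.79 and -0.96. Cytoplasmic Actb fell by 2.31 in control and 2.03 in tKO cells, Flna, the non-muscle filamin, fell by 1.88 and 1.60, and Actn1, the non-muscle alpha-actinin, fell by 1.85 and 2.21. At DM3 2 of the 24 were higher in tKO cells (Pdlim2 and Unc45a) and 1 lower (Pdlim7), and in GM 1 was higher and 0 lower. For both lists, 3.38% of all tested genes were called between genotypes at DM3 and 2.06% in GM. On differentiation, 23.2% of all tested genes rose and 38.3% fell in control cells. In tKO cells 24.9% rose and 36% fell.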

How the data were processed

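Poly(A) RNA of 16 C2C12 libraries was sequenced on an Illumina HiSeq, per the labels' protocols. The authors deposited 1 table of FPKM values; STAR, DESeq and build mm10 are named in the submitters' processing notes, and the counter, annotation and strand setting are not given in the sources used here, so overlapping genes may share fragments. Depth was 22642563 to 56585952 fragments. Here values were taken as log2(FPKM + 1), genes with a mean under 0.5 FPKM were left out, and limma 3.58.1 in R 4.3.3 (trend and robust moderation) was fitted to 11832 genes with 1 mean per group, or per genotype, stage and culture (2 libraries a mean). The 2 kinds of fit were also run on simulated libraries. Those were drawn independently, with no shared lines or cultures, so that run cannot show how shared lines affect the p-values here. Members and gene lists were chosen with earlier results of these data known. Per-library values are given for members called between genotypes and for the largest and smallest change of each role group. Alternatives covered pseudocount, filter, scaling, moderation, voom, replicate block and left-out libraries or lines.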

Additional observations from a re-analysis of the deposited data

Results flagged for a closer look

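A library far from the other 3 of its group was looked for in 108 sets of 4 values of the tested genes, and 7 were found; chance gives about 1 in 20. In control DM3, Tmod1 was 4.0 FPKM in population 1 culture 1 against 2.84 to 2.99 in the others. In tKO DM3, Mylk2 was 0.855 in clone 1 culture 1 against 0.370 to 0.436, and Klhl40 was 5.93 in clone 1 culture 2 against 14.4 to 15.5. In control GM, population 1 culture 2 had Myl1 at 1.12 against 0.0793 to 0.114 and Mybph at 0.0694 against 0. In tKO GM, Actc1 was 0.390 in clone 1 culture 2 against 0 to 0.0441, and Nrap was 0.282 in clone 1 culture 1 against 0.112 to 0.128.

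The change of Mylk2 on differentiation differed between genotypes, -1.01 on the log2 scale (limma, adjusted p = 0.0468). The genotype difference of Lmod2 at DM3 differed between cultures, 2.21 (limma, adjusted p = 0.021). Neither call was stable: the Mylk2 call ended in 23 of 30 alternatives and the Lmod2 call in 18 of 26.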

How the results depend on the processing

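No called gene changed direction in 8650 single-gene values over the alternatives: 8364 kept their side of the threshold, 187 fell below it and 99 rose above it. Uncalled values changed sign in 264 of 6351 cases. The number of called members moved as follows. With a filter of 5 FPKM, which tests fewer genes, counts went from 28 to 12 (control stage change), 26 to 10 (tKO stage change), 1 to 0 (genotype in GM), 3 to 1 (genotype in DM3), 4 to 0 and 9 to 4 (DM3 cultures 1 and 2) and 1 to 0 in both interactions. With a pseudocount of 0.1 they were 2 in GM, 1 in DM3, 3 in DM3 culture 2 and 0 in both interactions. With no filter they were 5 in DM3, 0 for genotype by stage and 0 in GM culture 2. TPM scaling and voom each gave 0 in both interactions. The cause of these moves was not tested.

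Leaving out a line leaves fewer libraries. Without control population 1 or 2, counts were 0 in GM, 1 in DM3, 0 in DM3 culture 1, 0 and 2 in DM3 culture 2, 0 in GM culture 2 and 0 in both interactions. In control cells the stage calls of Ankrd1, Flnc, Ldb3 and Pdlim3 ended without either population and that of Myl4 without population 1. Without clone 1 counts were 2 in GM, 2 in GM culture 1 and 0 in both interactions. Without clone 2 counts were 2 in GM, 2 in GM culture 1, 7 in GM culture 2, 8 in DM3, 12 in DM3 culture 1, 16 in DM3 culture 2 and 12 for genotype by culture. Line averages gave 0 in GM and 0 for genotype by stage, and fits of the 8 compared libraries gave 0 in GM and 1 in DM3. Leaving out 1 library at a time gave 28 and 26 for the stage changes, 0 to 2 in GM, 1 to 4 in DM3, 0 to 1 for genotype by stage, 2 to 9 in DM3 culture 1, 2 to 11 in DM3 culture 2, 0 to 11 for genotype by culture, 0 in GM culture 1 and 0 to 5 in GM culture 2. The DM3 count was 1, and the DM3 culture 2 count 2, without population 1 or clone 1 of DM3 culture 2; the DM3 culture 1 count was 2 without population 2 and 9 without clone 2 of DM3 culture 1; the GM culture 2 count was 5 without either clone of DM3 culture 1 and 0 without either population or clone 1 of GM culture 2; the GM count was 2 without clone 2 culture 1.

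Same-numbered cultures of the 2 genotypes deviated together only in part: the mean correlation was 0.265 and 0.235 in GM and 0.192 and 0.181 in DM3, with single pairs down to -0.224, so the numbers were not taken as pairs. With culture number as a replicate block the counts were 28 and 26 for the stage changes, 2 in GM (Ankrd1 added, limma adjusted p = 0.045), 4 in DM3 (Actc1 added, limma adjusted p = 0.0338) and 1 for genotype by stage. A replicate block within each stage gave the same 5 counts.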
